A study of Arabidopsis thaliana with 30 samples.

Results

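The 10 genes described here are the Arabidopsis thaliana genes for the last steps in the making of active cytokinins. They are the hydroxylase genes CYP735A1 and CYP735A2 and the activation genes LOG1 to LOG8 (LONELY GUY). They were chosen by gene code as a family, a rule that uses no measured value, from a table of 33199 features, of which 32833 carry a gene code. Each of the 10 was found in the table.

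Cytokinins are adenine-derived plant hormones that promote cell division, shoot growth and vascular development. Isopentenyltransferases (IPT) make isopentenyladenine nucleotides, and CYP735A cytochrome P450 enzymes add a hydroxyl group to the side chain of these, which gives the trans-zeatin type. LOG enzymes then remove the ribose phosphate from a cytokinin nucleotide and release the free base, the form that receptors bind. In Arabidopsis, trans-zeatin forms are made mainly in roots and travel to the shoot in the xylem.

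Messenger RNA was sequenced in 30 libraries of 7-day-old seedlings. Wild type was Col (Col-0) and the mutant was ahp4, which carries the allele ahp4-2 of AHP4, a gene for a histidine phosphotransfer protein of the cytokinin signalling relay. Plants were moved from agar plates to liquid medium for 2 h with 100 nM 6-benzylaminopurine (BA), a synthetic cytokinin, in 0.1% DMSO, or with 0.1% DMSO alone (mock). Root and shoot pools were parted at the hypocotyl, and the sources leave unclear whether this came before or after the treatment. Each combination of genotype, organ and treatment had 4 libraries, except mock and BA shoots of ahp4, which had 3 each. All libraries shared the move to liquid medium and the DMSO. A single mutant allele was profiled. No label says that the libraries of a group came from separate cultures. The p-values therefore reflect library-to-library spread, which may be technical.

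Levels are given in FPKM, the fragments of a gene per unit of its length and of the depth of the library, on the depth scale the authors used. Each library held between 9205127 and 13779004 rebuilt reads. The summed level of 8 green-tissue markers was at least 48700 FPKM in each shoot library and at most 423 FPKM in each root library, and that of 8 root markers was 379 to 872 FPKM in roots and 0.583 to 6.38 FPKM in shoots. The root marker ESB1 was low in both organs. Its means were 0.310 FPKM in roots and 0.195 FPKM in shoots of mock Col, and 0.231 and 0.607 FPKM in mock ahp4. Of the shoot meristem markers, WUS was at 0 in every library and CLV3 had at most 0.142 FPKM. The third, STM, had 0.921 to 1.25 FPKM in mock Col shoots and at most 0.101 FPKM in any root library, and was called lower in mock Col roots (-1.06 ± 0.13). STM entered that test only through shoot libraries, where it was high. AHP4 itself had 0.539 to 1.71 FPKM in mock Col roots and 0.347 to 0.435 FPKM in mock ahp4 roots. In BA roots it had 0 to 0.885 FPKM in Col and 0 to 0.514 FPKM in ahp4. Its shoot ranges were 2.66 to 10.6 FPKM in mock Col against 0.808 to 2.49 FPKM in mock ahp4, and 1.61 to 3.71 against 0.363 to 0.622 FPKM with BA. For ahp4 root mock replicate 1, the title says ahp4 and mock but other labels of the same sample say Col-0 and BA. The title decided its group here, and each comparison of its group is also given without it. Its CYP735A2 level of 9.17 FPKM lay within the range of the mock root libraries. That level did not decide the group, and it cannot tell the genotype, since CYP735A2 was not called between genotypes. In whole-organ samples, fewer cells of a type and less RNA per cell cannot be told apart.

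In mock-treated wild-type plants both hydroxylase genes were higher in roots than in shoots. CYP735A2 had 7.22, 11.8, 10.7 and 10.3 FPKM in the 4 Col root libraries and 0.808, 0.376, 0.351 and 0.121 FPKM in the 4 Col shoot libraries. The lowest root library was far above the highest shoot library, and the means differed 24.2-fold. CYP735A1 had 1.44, 2.54, 2.88 and 1.85 FPKM in Col roots, and in Col shoots it was at 0 in 3 libraries and at 0.0589 FPKM, a single rebuilt read, in the fourth. In ahp4 shoots CYP735A1 was at 0 in all 6 libraries. Its ahp4 root mean was at least 41.3-fold higher than the limit of 3 reads over the shoot group in mock plants, and at least 38.1-fold higher with BA. CYP735A2 made up 82.3% ± 2.53 (SD, n = 4) of the summed hydroxylase level in mock Col roots.

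The LOG genes divided into root and shoot members. In mock Col roots LOG7 led with 37.6, 64.7, 46.1 and 46.5 FPKM, against 3.69, 1.76, 2.97 and 3.12 FPKM in Col shoots. Every root library exceeded every shoot library, 16.9-fold in the means. LOG4 had a mean of 3.05 FPKM in roots and 0.259 in shoots, and LOG3 1.97 and 0.446, again with no overlap between organs. LOG3 and LOG4 are known in vascular cells of the root as targets of the transcription factor pair TMO5 and LHW. LOG8 went the other way, with 9.22, 11.3, 8.01 and 11.8 FPKM in mock Col roots and 17.2, 18.1, 13.8 and 19.4 FPKM in mock Col shoots. LOG1 likewise had 3.39 to 4.51 FPKM in those roots and 5.98 to 11.6 FPKM in the shoots. LOG5 and LOG6 were under 1 FPKM in every root library. LOG2 was the lowest LOG gene in mock Col plants, at 0 in 2 of 4 root libraries and in 3 of 4 shoot libraries.

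Together the 8 LOG genes summed to 69.1 ± 10.7 FPKM in mock Col roots and 30.6 ± 5.12 FPKM in mock Col shoots (SD, n = 4). LOG7 held 70.0% ± 5.38 of the root sum and 9.46% ± 2.47 of the shoot sum. LOG8 held 14.7% ± 2.31 in roots and 56.3% ± 6.38 in shoots, and LOG1 held 6.02% ± 1.52 and 28.2% ± 3.71. In the order of mock Col root levels, LOG7 stood clear of LOG8. LOG8 and CYP735A2 overlapped, CYP735A2 stood clear of LOG1, and LOG1, LOG4, CYP735A1 and LOG3 each overlapped the next. In shoots LOG8, LOG1 and LOG7 stood clear of each other and of the remaining 7 genes, whose neighbours all overlapped.

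**Figure D1:**
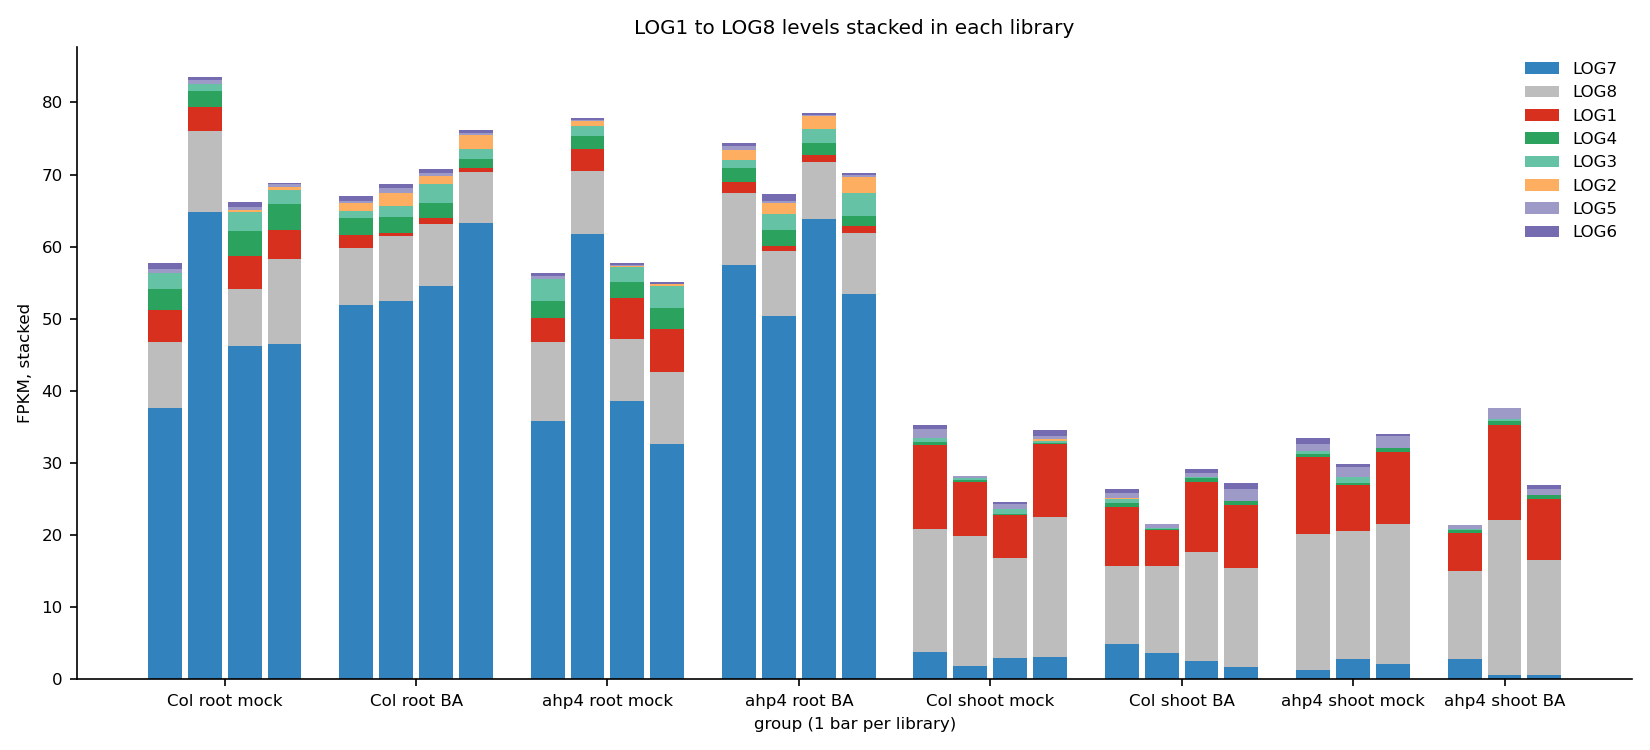
Stacked levels of LOG1 to LOG8 (FPKM, linear axis from 0), with 1 bar for each of the 30 libraries, by group. LOG7 fills most of each root bar and LOG8 and LOG1 most of each shoot bar. LOG1 is thinner and LOG2 thicker in the BA root bars than in the mock root bars.

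The organ difference was tested with limma on log2(FPKM + 1), with Benjamini-Hochberg adjustment over 20818 genes, and a gene was called at an adjusted p under 0.05. This scale understates changes of low genes. Of all genes tested in mock Col plants 71.3% were called, 38.3% higher in roots and 32.9% lower, so a call by itself is common. Of the 10 genes 9 passed the expression filter of 1 FPKM in at least 3 libraries, and LOG6 did not. CYP735A1, LOG2, LOG3 and LOG4 passed it through root libraries alone, and LOG5 through shoot libraries alone. The calls were 5 higher in roots (LOG7, CYP735A2, LOG4, CYP735A1 and LOG3) and 2 higher in shoots (LOG1 and LOG8). With no expression filter the adjusted p was 1.56e-12 for CYP735A1, 0.000344 for LOG3 and 2.07e-10 for LOG4. On this scale LOG7 differed by 3.68 ± 0.25 (SE, adjusted p = 2.87e-13) and CYP735A2 by 2.96 ± 0.28 (adjusted p = 3.03e-10), both higher in roots. LOG1 differed by -0.92 ± 0.24 (adjusted p = 0.00146) and LOG8 by -0.71 ± 0.14 (adjusted p = 4.35e-05), both lower in roots. The last pair depended on the scale between organs: with libraries scaled by read totals LOG1 was at -0.45 (adjusted p = 0.115) and LOG8 at -0.20 (adjusted p = 0.241). In mock ahp4 plants the same 7 genes were called in the same directions, and LOG5 was also lower in roots, by -0.94 ± 0.20 (adjusted p = 0.000117). With no expression filter the adjusted p of LOG5 was 0.000107, that of CYP735A1 1.28e-11, of LOG3 0.000102 and of LOG4 1.38e-07. LOG1 again lost its call there with read totals, at -0.47 (adjusted p = 0.133). In mock ahp4, 70% of all genes were called, 37.9% higher in roots and 32.1% lower. Without ahp4 root mock replicate 1, LOG2 was also called higher in mock ahp4 roots, by 0.43 (adjusted p = 0.0379), which made 9 members.

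The 10 genes lie on all 5 chromosomes, with positions from the RefSeq annotation of TAIR10.1. CYP735A2 (AT1G67110) is at chr1:25061673-25065446 on the minus strand with 4 exons, and CYP735A1 (AT5G38450) at chr5:15393720-15397295 on the minus strand with 5. LOG1 (AT2G28305) is at chr2:12081023-12084678 and LOG2 (AT2G35990) at chr2:15112084-15116776, both on the plus strand with 7 exons. LOG7 (AT5G06300) is at chr5:1921548-1925407 on the minus strand. The 28 pairs of LOG coding sequences were 63.8% to 87.7% identical (median 69.8%), with LOG3 and LOG4 the closest pair. CYP735A1 and CYP735A2 were 77.0% identical. With LOG9 included, none of 37 pairs shared a run of 50 identical bases. The start of LOG4 touches AT3G08340, a long noncoding RNA on the other strand that is listed at 0 in the root groups. Whether counting used strand is not known from the sources used here, and LOG4 is uncertain to that extent.

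The 250 bases before the annotated start are shown for the 3 genes whose root level changed with BA, described next. Capitals mark AGATT or AGATC on either strand (AATCT and GATCT on the other), short words known as the core of sites that type-B response regulators bind, these being the transcription factors at the end of the cytokinin relay. Each is written 5′ to 3′ along the gene's strand, from chr1:25065447-25065696 (minus), chr2:12080773-12081022 (plus) and chr2:15111834-15112083 (plus).
CYP735A2: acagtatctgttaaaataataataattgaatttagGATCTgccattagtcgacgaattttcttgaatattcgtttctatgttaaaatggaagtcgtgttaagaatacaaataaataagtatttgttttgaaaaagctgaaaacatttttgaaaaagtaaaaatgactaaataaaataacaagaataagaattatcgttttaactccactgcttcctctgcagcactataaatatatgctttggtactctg
LOG1: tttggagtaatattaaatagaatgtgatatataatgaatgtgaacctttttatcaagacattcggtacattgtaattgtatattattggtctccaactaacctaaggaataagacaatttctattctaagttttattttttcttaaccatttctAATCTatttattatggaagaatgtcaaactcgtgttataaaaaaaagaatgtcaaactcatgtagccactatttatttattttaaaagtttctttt
LOG2: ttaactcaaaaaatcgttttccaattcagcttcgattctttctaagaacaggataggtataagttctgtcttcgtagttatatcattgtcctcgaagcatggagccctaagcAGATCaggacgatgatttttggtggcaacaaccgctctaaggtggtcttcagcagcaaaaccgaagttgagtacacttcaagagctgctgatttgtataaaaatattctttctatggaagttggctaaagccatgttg
CYP735A2 and LOG2 each held 1 AGATC and no AGATT, and LOG1 held 1 AGATT. Of the 27443 windows of that length before annotated gene starts, 26.7% held AGATC and 63.7% held AGATT. CYP735A1 and LOG8, which were not called with BA, each held 2 AGATT, and 27.9% of windows held at least as many. The longer word AGATACG was in 1.69% of windows and in none of the 10. A match is a description of letters, not of binding.

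BA raised CYP735A2 in roots within 2 h. The mock Col root libraries, given above, lay between 7.22 and 11.8 FPKM, and the BA libraries had 55.3, 45.6, 55.3 and 46.6 FPKM. The groups did not overlap and the means rose 5.06-fold. In ahp4 roots the mock libraries had 9.17, 8.93, 11.5 and 7.63 FPKM and the BA libraries 59.3, 67.5, 45.5 and 47.9 FPKM, a 5.92-fold rise in the means with no overlap. The log2 change was 2.24 ± 0.15 in Col (adjusted p = 7.74e-08) and 2.44 ± 0.15 in ahp4 (adjusted p = 3.30e-08). Over all 19418 genes tested in roots, 20.5% were called in Col (11.8% higher, 8.75% lower) and 20.7% in ahp4 (11.4% higher, 9.26% lower). The root marker sum was also higher with BA, at 591 to 703 FPKM against 379 to 452 FPKM in Col roots and 655 to 872 against 422 to 755 FPKM in ahp4 roots, and its part in these changes was not tested. Of the 8 root markers 7 were tested in Col roots. THAS, a root gene of triterpene synthesis, went from 94.5 to 248.5 FPKM in the means (1.43) and MRN1 was also called higher (1.32). NRT2.1, a nitrate transporter gene, was called lower (-1.46), and 4 were not called. In ahp4 roots THAS, MRN1 and IRT1 were called higher, NRT2.1 lower and 3 were not called. The sum of 7 vascular markers overlapped between mock and BA, at 110 to 132 and 119 to 136 FPKM in Col roots. Of these T5L1 was called higher (0.37) and APL (-0.64) and LHW (-0.35) lower in Col, and LHW lower (-0.40) in ahp4, and their part in these changes was not tested. With BA the mean of CYP735A2 stood second among the 10 genes, and its libraries overlapped those of LOG7 in either genotype.

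CYP735A1, the other hydroxylase gene, did not pass the test. Its Col root libraries had 1.44 to 2.88 FPKM in mock and 1.08 to 2.07 FPKM with BA, and the log2 change was -0.26 (95% interval -0.58 to 0.07, adjusted p = 0.258). The ahp4 change was 0.06 (interval -0.27 to 0.39, adjusted p = 0.824). The share of CYP735A2 in the hydroxylase sum accordingly went from 82.3% ± 2.53 to 96.9% ± 0.82 in Col roots and from 81.9% ± 3.55 to 96.2% ± 0.82 in ahp4 roots (SD, n = 4).

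Among the LOG genes in roots, LOG1 fell and LOG2 rose. LOG1 had 4.36, 3.39, 4.50 and 3.91 FPKM in mock Col roots and 1.71, 0.402, 0.866 and 0.654 FPKM with BA. The groups did not overlap, and the mock mean was 4.45-fold the BA mean. The ahp4 libraries had 3.45, 3.09, 5.64 and 5.94 FPKM in mock and 1.48, 0.713, 1.01 and 0.963 FPKM with BA, again apart. LOG1 fell by 1.44 ± 0.20 on the log2 scale in Col (adjusted p = 0.000101) and by 1.41 ± 0.20 in ahp4 (adjusted p = 0.000117). Rebuilt as whole reads and tested with voom, a limma method for counts, the change of LOG1 was -2.30 in Col and -2.08 in ahp4. The BA libraries of Col hold 9 to 40 reads of LOG1 each.

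LOG2 was near its detection limit without BA. Its mock Col root libraries had 0, 0, 0.250 and 0.537 FPKM (0, 0, 6 and 11 reads), and the BA libraries had 1.11, 1.74, 1.07 and 1.96 FPKM (26, 39, 21 and 39 reads). In ahp4 roots the mock values were 0.0486, 0.774, 0.145 and 0.265 FPKM and the BA values 1.38, 1.53, 1.82 and 2.31 FPKM. Every BA library was above every mock library in both genotypes. The means rose 7.47-fold in Col and 5.72-fold in ahp4. These folds rest on single mock libraries: without Col root mock replicate 4 the first was 17.6-fold, and without ahp4 root mock replicate 2 the second was 11.5-fold. The log2 change was 1.05 ± 0.20 in Col (adjusted p = 0.00119) and 1.10 ± 0.20 in ahp4 (adjusted p = 0.000810). LOG2 entered the test only through its BA libraries, 8 of which reached 1 FPKM and no mock library. With no expression filter the adjusted p was 0.00129 in Col and 0.000900 in ahp4. With voom the change was 4.01 and 2.95, a size that rests on the few mock reads. YLS9, a gene that ends 544 bases before LOG2 on the same strand, also rose with BA, by 3.18 in Col roots with limma. The part of reads running on from YLS9 in the LOG2 level was not tested.

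The remaining LOG genes were not called in roots. LOG7, the most abundant, had 37.6 to 64.7 FPKM in mock and 51.9 to 63.2 FPKM with BA in Col, and the groups overlapped. Its change was 0.21 (95% interval -0.16 to 0.57, adjusted p = 0.428) in Col and 0.45 (interval 0.08 to 0.81, adjusted p = 0.0771) in ahp4. Without ahp4 root mock replicate 2, which had 61.7 FPKM, the latter was 0.64 (adjusted p = 0.00380). LOG8 changed by -0.27 in Col (adjusted p = 0.116), and by -0.36 without Col root mock replicate 3 (adjusted p = 0.0403). LOG4 changed by -0.46 in Col (adjusted p = 0.0645), and by -0.59 without Col root mock replicate 2 (adjusted p = 0.0253). LOG3 changed by -0.15 in Col and -0.11 in ahp4. LOG5 and LOG6 were below the filter and their exact permutation p-values in roots were 0.400 or more, two-sided. In all 2 of the 10 genes were called higher and 1 lower in each genotype, 8 having been tested. Of all genes tested 11.8% were called higher and 8.75% lower in Col (20.5% in all), and 11.4% and 9.26% in ahp4 (20.7% in all). The median change of the members tested was -0.21 in Col and -0.02 in ahp4, beside -0.0035 and -0.0106 for all genes tested. The LOG sum was 69.1 ± 10.7 FPKM in mock and 70.7 ± 3.99 FPKM with BA in Col roots, and 61.7 ± 10.7 and 72.6 ± 4.91 FPKM in ahp4 roots (SD, n = 4). Within it LOG1 held 4.06% to 7.55% in the mock and 0.586% to 2.55% in the BA libraries of Col, and the mean share of LOG2 was 0.289% and 2.07%.

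Without ahp4 root mock replicate 1, the library with conflicting labels, CYP735A2 changed by 2.44 (adjusted p = 3.78e-07), LOG1 by -1.50 (adjusted p = 0.000238) and LOG2 by 1.00 (adjusted p = 0.00380) in ahp4 roots, and the same 3 genes were called.

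**Figure D2:**
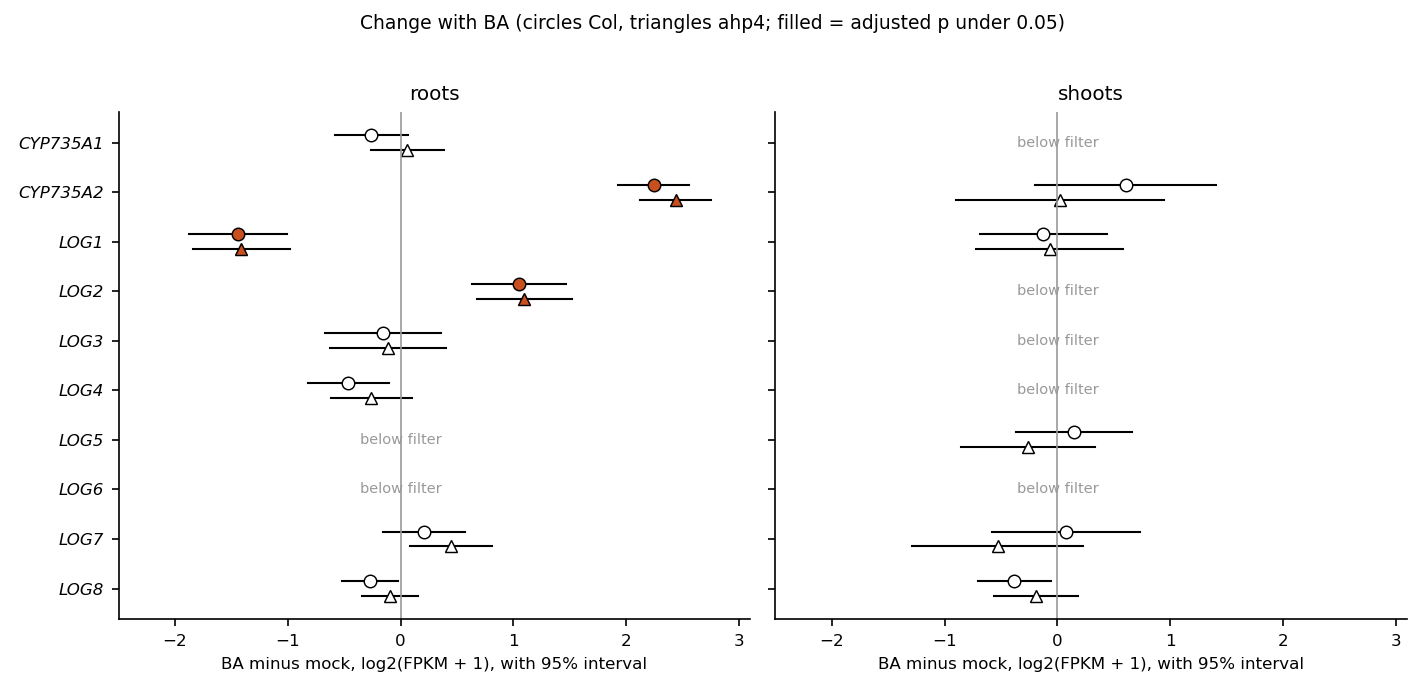
Change with BA of each of the 10 genes in roots (left) and shoots (right), as BA minus mock on log2(FPKM + 1) with 95% intervals; circles are Col, triangles ahp4, and filled symbols passed the adjusted threshold of 0.05. CYP735A2 and LOG2 lie to the right and LOG1 to the left of 0 in roots of both genotypes, and no symbol is filled in shoots.

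In shoots none of the 10 genes was called with BA in either genotype. Over all 18246 genes tested there, 8.15% were called in Col (5.26% higher, 2.89% lower) and 3.92% in ahp4 (2.93% higher, 0.997% lower). Of the 10 genes, 5 passed the filter: CYP735A2, LOG1, LOG5, LOG7 and LOG8, with CYP735A2 passing only through 3 BA libraries. By limma 1 of the 5 had an unadjusted p under 0.05 in Col (LOG8) and none in ahp4. Of all 18246 genes tested, 4259 had one in Col and 3223 in ahp4. Voom gave the same counts of members and also called none. LOG1, which fell in roots, had 11.6, 7.48, 5.98 and 10.08 FPKM in mock Col shoots and 8.23, 5.04, 9.80 and 8.72 FPKM with BA. These groups overlapped and the change was -0.12 (95% interval -0.69 to 0.44, adjusted p = 0.824). In ahp4 shoots it was -0.07 (interval -0.72 to 0.58). LOG8 had 13.8 to 19.4 FPKM in mock and 10.8 to 15.1 FPKM with BA in Col shoots, a change of -0.38 ± 0.15 (adjusted p = 0.142). LOG7 changed by 0.07 in Col and by -0.53 in ahp4 (adjusted p = 0.920 and 0.470). Of the genes below the filter, LOG3, LOG4 and LOG6 had at most 13 reads in any shoot library and LOG2 at most 4. The 13 two-sided exact permutation p-values that could be computed for members below the filter, in either organ, were 0.171 or more, where 4 against 4 libraries allow 0.0286 and 3 against 3 allow 0.100.

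CYP735A2 was uneven among BA shoots. The Col BA shoot libraries had 3.72, 1.75, 0.187 and 0.303 FPKM (63, 30, 3 and 6 reads), and the ahp4 BA shoot libraries had 1.197, 0.289 and 0.176 FPKM. Mock shoots lay between 0.121 and 0.808 FPKM in both genotypes. So 3 BA libraries exceeded every mock shoot library and the other 4 lay among them. The change was 0.60 ± 0.37 in Col (95% interval -0.20 to 1.40, adjusted p = 0.361) and 0.02 ± 0.43 in ahp4 (interval -0.90 to 0.95, adjusted p = 0.988). Without Col shoot BA replicate 1 or replicate 2, CYP735A2 did not pass the filter. Those 3 libraries also had the most THAS, with 2.79, 0.790 and 2.01 FPKM against at most 0.571 FPKM in the other shoot libraries. THAS was itself called higher with BA in roots of both genotypes. Over all 8 root markers they summed to 6.38, 1.82 and 2.56 FPKM, where the other 11 shoot libraries ran from 0.583 to 3.21 FPKM. Only the first of these sums lay above that range. THAS is part of the sums, and made 2.01 of the 2.56 FPKM in ahp4 shoot BA replicate 1. No root marker reached 1 FPKM in every library of a shoot group. The part of root tissue in these CYP735A2 reads was not tested.

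**Figure D3:**
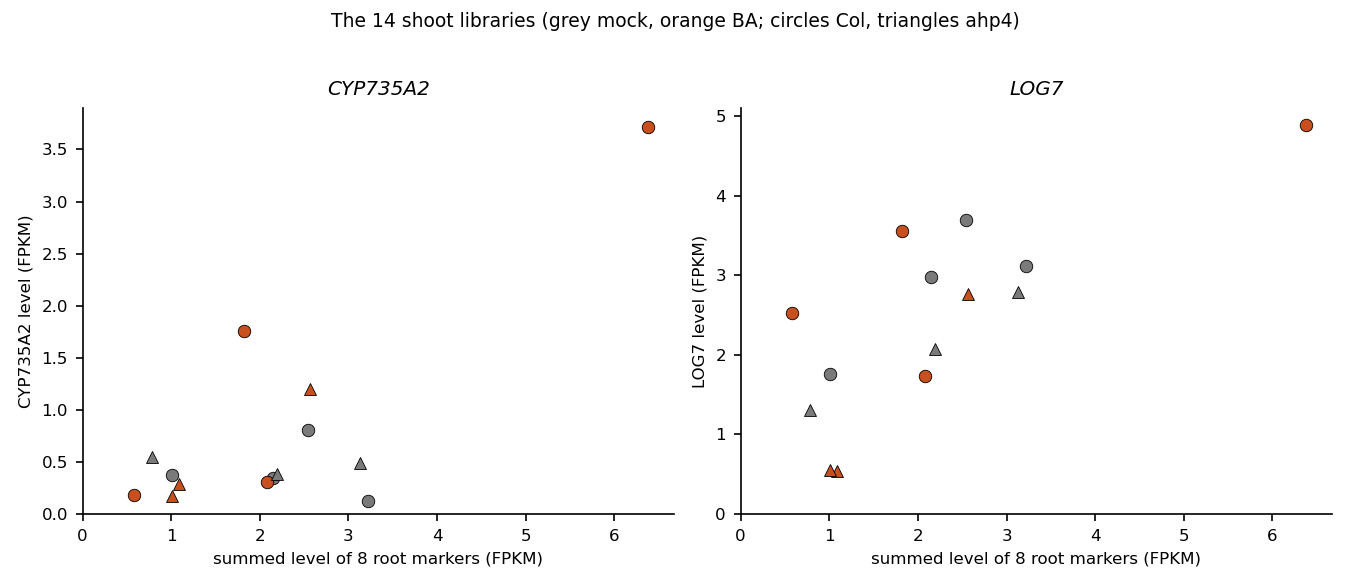
Levels of CYP735A2 (left) and LOG7 (right) against the summed level of 8 root markers in the 14 shoot libraries, all in FPKM; circles are Col, triangles ahp4, grey mock and orange BA. Col shoot BA replicate 1, with 6.38 FPKM of root markers, has the highest level of both genes.

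The difference between organs in the BA response was tested directly over 20818 genes. In Col, 11.6% of all genes were called (5.62% with a more positive change in roots, 5.97% more negative), and in ahp4 8.76% (4.37% and 4.4%). CYP735A2 changed by 1.64 ± 0.40 more in roots than in shoots of Col (adjusted p = 0.00788) and by 2.42 ± 0.43 more in ahp4 (adjusted p = 0.000755). Both calls were lost with a pseudocount of 0.1, at 1.28 (adjusted p = 0.347) in Col and 2.68 (adjusted p = 0.0530) in ahp4. They were also lost with voom, at 1.24 (adjusted p = 0.427) and 2.76 (adjusted p = 0.0974). For LOG1 the root change minus the shoot change was -1.32 ± 0.35 in Col (adjusted p = 0.0133), and this call held under each of the 25 alternatives, at adjusted p-values up to 0.0357. In ahp4 the difference was -1.34 ± 0.37 (adjusted p = 0.0224). That call ended without ahp4 root mock replicate 3 (adjusted p = 0.0508) or replicate 4 (0.0518), without ahp4 shoot mock replicate 2 (0.0864) and without ahp4 shoot BA replicate 2 (0.0975). LOG2 differed by 1.12 ± 0.23 in Col (adjusted p = 0.00173), also under each alternative that could be fitted, and by 1.12 ± 0.24 in ahp4 (adjusted p = 0.00418). The ahp4 call was lost with a pseudocount of 0.1, at 2.68 (adjusted p = 0.0507), and with voom, at 3.24 (adjusted p = 0.205). LOG4 was called in Col at the edge, by -0.66 ± 0.22 (adjusted p = 0.0480). It lost the call under 18 of 25 alternatives, 11 of them the omission of a single library: Col root mock replicates 1, 3 and 4, Col shoot mock replicates 2, 3 and 4, Col root BA replicates 3 and 4, and Col shoot BA replicates 1, 3 and 4. Their adjusted p-values ran from 0.0576 to 0.126. LOG7 was not called in ahp4 (0.98, adjusted p = 0.119), and was called without ahp4 root mock replicate 2 (1.17, adjusted p = 0.0458) or without ahp4 shoot BA replicate 1 (1.40, adjusted p = 0.0105). Without ahp4 root mock replicate 1, the same 3 genes were called in ahp4, with CYP735A2 at 2.41, LOG1 at -1.43 and LOG2 at 1.03.

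In BA-treated Col plants CYP735A2 was 34.0-fold higher in roots than in shoots in the means, and 67.7-fold without Col shoot BA replicate 1, against 24.2-fold in mock. LOG1 was 8.75-fold higher in shoots than in roots, against 2.17-fold in mock. LOG2, not called between organs in mock Col plants, was higher in BA roots by 1.26 ± 0.16 in Col (adjusted p = 6.78e-08) and by 1.45 ± 0.17 in ahp4 (adjusted p = 2.28e-08). LOG2 passed the filter only through BA root libraries. With no expression filter its adjusted p was 3.71e-08 in Col and 1.26e-08 in ahp4. In ahp4 BA plants, where LOG2 was at 0 in all 3 shoot libraries, its root mean was at least 25.8-fold higher than the limit of 3 reads over the shoot group. Of the 10 genes 6 were called higher and 2 lower in BA roots of Col, where 38.4% and 33.1% of all genes were (71.6% in all), and 6 and 3 in ahp4, where 38.0% and 32.5% were (70.5% in all). The LOG8 call in BA-treated Col ended with read totals, at -0.14 (adjusted p = 0.400). LOG5 entered the organ tests only through shoot libraries, and with no expression filter its adjusted p in BA-treated ahp4 was 0.0109. CYP735A1, LOG3 and LOG4 entered only through root libraries. With no filter their adjusted p-values were at most 0.000108 in BA-treated Col and 4.43e-05 in BA-treated ahp4. The LOG5 call in ahp4 ended with read totals (adjusted p = 0.0526) and without ahp4 shoot BA replicate 2 (adjusted p = 0.114).

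**Figure D4:**
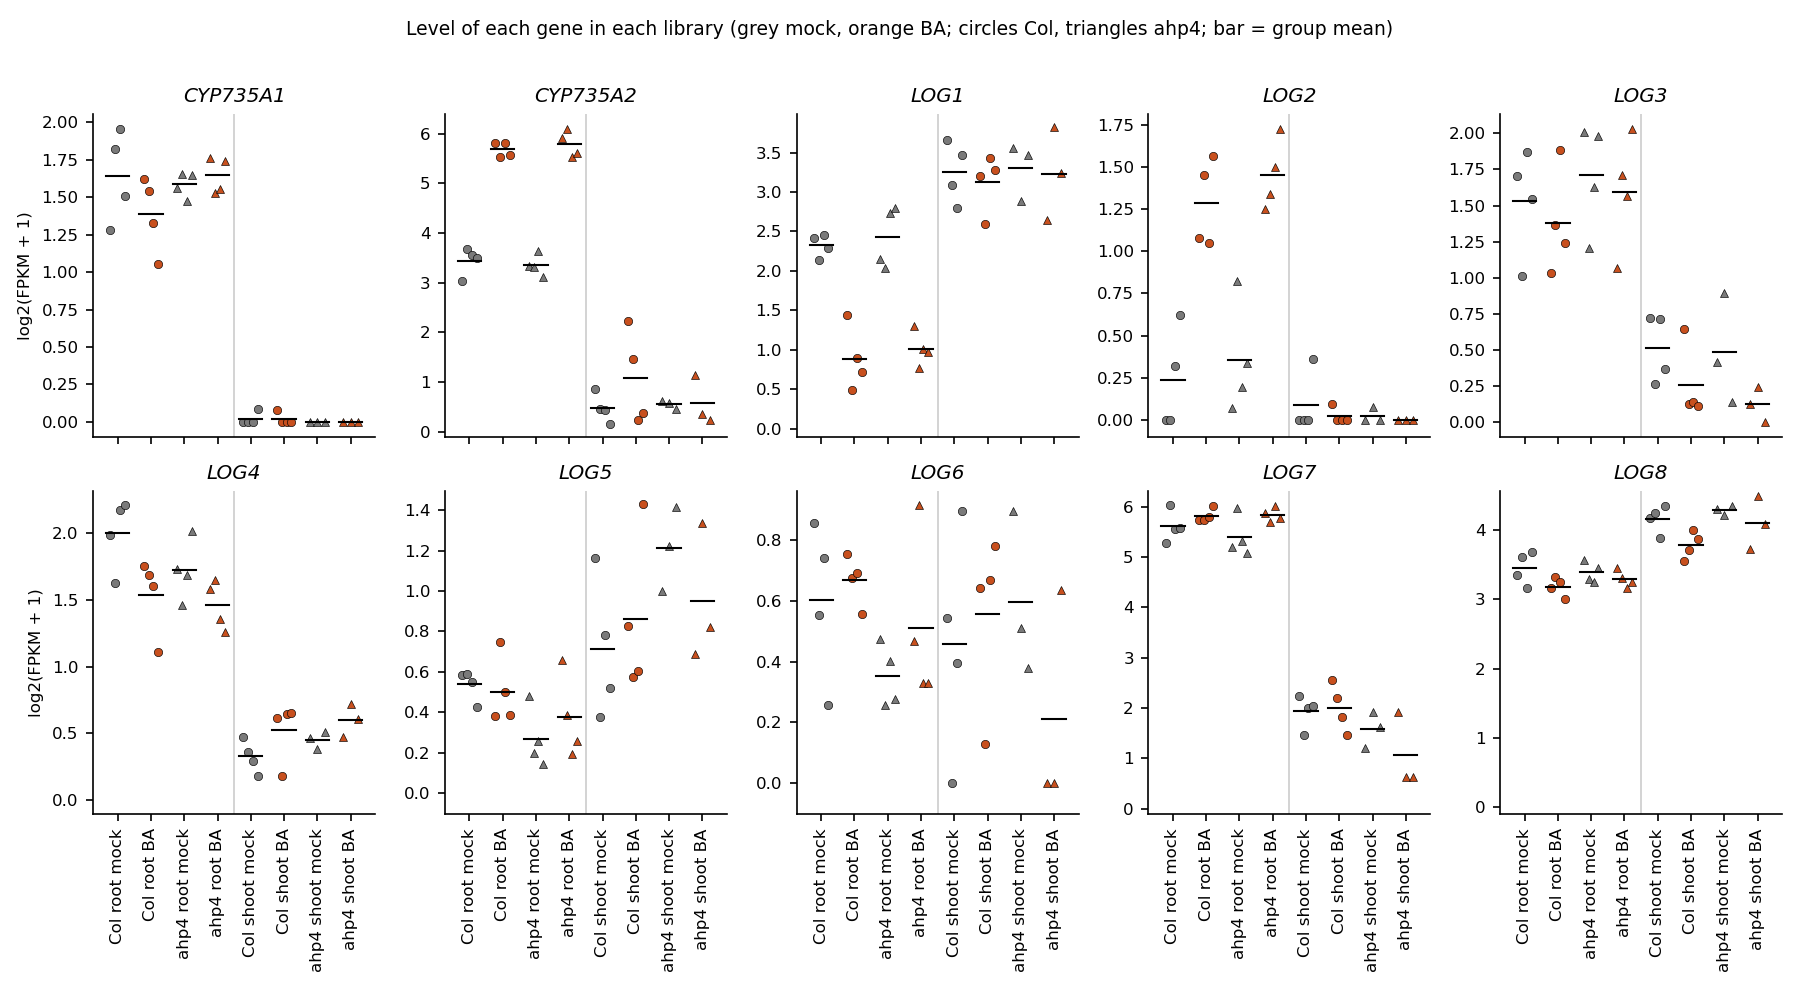
Level of each of the 10 genes in each of the 30 libraries on log2(FPKM + 1), with a separate vertical axis per gene; root groups are left of the grey line and shoot groups right of it, and bars are group means. The BA root points of CYP735A2 and LOG2 lie above, and those of LOG1 below, all mock root points of the same gene.

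None of the 10 genes was called between ahp4 and Col. By limma 0 members were called in mock roots, BA roots, mock shoots or BA shoots, and 0 in the test of whether the BA change differed by genotype in either organ. Few genes of any kind were called: 0.0875% of genes in mock roots, 0.0257% in BA roots and 0.00548% in either shoot comparison, and 0% in both genotype by BA tests. At an unadjusted p under 0.05 there was 1 member in BA shoots (LOG7) and none in the other comparisons, and voom called none, with 1 unadjusted in mock shoots and 1 in BA shoots. Of all 18246 genes tested in shoots, 376 were under that p in mock and 817 with BA. Of all 19418 tested in roots, 1754 were in mock and 765 with BA. In the genotype by BA tests the counts were 526 in roots and 336 in shoots. For CYP735A2 the mean was 10.01 ± 1.97 FPKM in mock Col roots and 9.30 ± 1.60 FPKM in mock ahp4 roots, and 50.7 ± 5.32 and 55.1 ± 10.3 FPKM with BA (SD, n = 4). The genotype difference was -0.09 in mock (95% interval -0.41 to 0.23) and 0.11 with BA (-0.21 to 0.42). The BA change differed by 0.19 between genotypes (-0.25 to 0.64). For LOG1 and LOG2 that difference was 0.03 (-0.58 to 0.64) and 0.04 (-0.55 to 0.64). LOG7 in BA shoots had 4.88, 3.56, 2.53 and 1.74 FPKM in Col and 2.76, 0.541 and 0.548 FPKM in ahp4. That was -0.95 ± 0.33, at an unadjusted p of 0.0122 in limma and an adjusted p of 0.944. The groups overlapped, and the root marker sum of the 3 ahp4 libraries was 2.56, 1.09 and 1.00 FPKM. Without ahp4 root mock replicate 1, no member was called between genotypes in mock roots or by the genotype by BA test in roots.

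The other steps of cytokinin metabolism were counted from lists of family members. In roots, 3 of 9 IPT genes, which begin synthesis, were called lower with BA in each genotype and none higher (5 tested). They were IPT5, IPT3 and IPT7. IPT7 passed the filter only through mock libraries, where it was high. With BA it had at most 0.144 FPKM in Col roots and 0.207 FPKM in ahp4 roots. IPT5 went from 8.66 to 1.08 FPKM and IPT3 from 5.67 to 0.645 FPKM in Col roots. Of 7 CKX genes, for the dehydrogenases that break cytokinins down, 4 were called higher in each genotype, and so were 3 of 3 genes for cytokinin glucosyltransferases, UGT76C1, UGT76C2 and UGT85A1. The median change was -0.93 for IPT genes, 1.05 for CKX genes and 0.55 for the glucosyltransferases in Col roots, beside -0.0035 for all genes tested, of which 11.8% were called higher and 8.75% lower in Col and 11.4% and 9.26% in ahp4. Of the CKX genes 6 were tested.

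Salvage enzymes act opposite to or beside LOG, as adenine phosphoribosyltransferases (APT) can turn cytokinin bases back into nucleotides. Of 9 salvage genes, all tested, 3 were called higher and 3 lower in Col roots and 2 and 3 in ahp4 roots, against the shares of all genes given above. Their median change was -0.0836 in Col and 0.00322 in ahp4. APT3 had 14.4 FPKM in its lowest mock Col root library and a mean of 17.5 ± 2.38, and with BA a mean of 82.3 ± 5.00 FPKM with a lowest library of 78.4 (SD, n = 4). The groups did not overlap. Its log2 change was 2.18 ± 0.11 in Col roots (adjusted p = 1.37e-08) and 2.13 ± 0.11 in ahp4 roots (adjusted p = 1.32e-08). APT5 rose by 1.26 ± 0.18 in Col and by 1.41 ± 0.18 in ahp4. APT4 was called higher in Col, at 0.63 (adjusted p = 0.0315) against 0.23 (adjusted p = 0.435) in ahp4, and the difference between genotypes was not called. APT1, the most abundant of the APT genes, was called lower, with means of 121 ± 21.3 FPKM in mock and 93.0 ± 7.71 FPKM with BA in Col (-0.37, adjusted p = 0.0192). APT2 and URH1, a gene for a nucleoside hydrolase, were also lower. The adenosine kinase genes ADK1 and ADK2 and URH2 were not called.

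In shoots 0 of 3 IPT genes tested, 3 of 3 CKX genes, 1 of 3 glucosyltransferase genes and 1 of 8 salvage genes were called in Col, all of them higher. Their median changes were 0.0302, 0.943, 0.213 and 0.0464, beside -0.0382 for all genes tested, of which 5.26% were called higher and 2.89% lower. In ahp4 the counts were 0 of 3, 2 of 3, 1 of 3 and 1 of 8, where 2.93% of all genes were called higher. Whether these counts differ between organs was not tested as such, and organ tests of single genes are given below. None of the 9 IPT genes was called in either genotype (3 tested, 0 with an unadjusted p under 0.05 in limma). CKX4, CKX5 and CKX7 were called higher in Col, and CKX4 and CKX7 in ahp4. UGT76C2 was called higher in both genotypes, by 1.40 ± 0.12 and 1.44 ± 0.14. APT3 was called higher by 0.71 ± 0.09 in Col (42.7 ± 2.35 to 70.8 ± 6.68 FPKM) and by 0.92 ± 0.11 in ahp4. ABCG14, the transporter that loads cytokinins for the way from root to shoot, was called in neither organ. In the organ by BA test of Col, 3 of 5 IPT genes had a more negative change in roots and 0 a more positive one. For CKX genes the counts were 1 and 2 of 6, for glucosyltransferase genes 1 and 1 of 3, and for salvage genes 0 and 1 of 9. In ahp4 they were 3 and 0, 1 and 3, 1 and 1, and 0 and 1. Of all genes 11.6% were called in Col and 8.76% in ahp4.

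**Figure D5:**
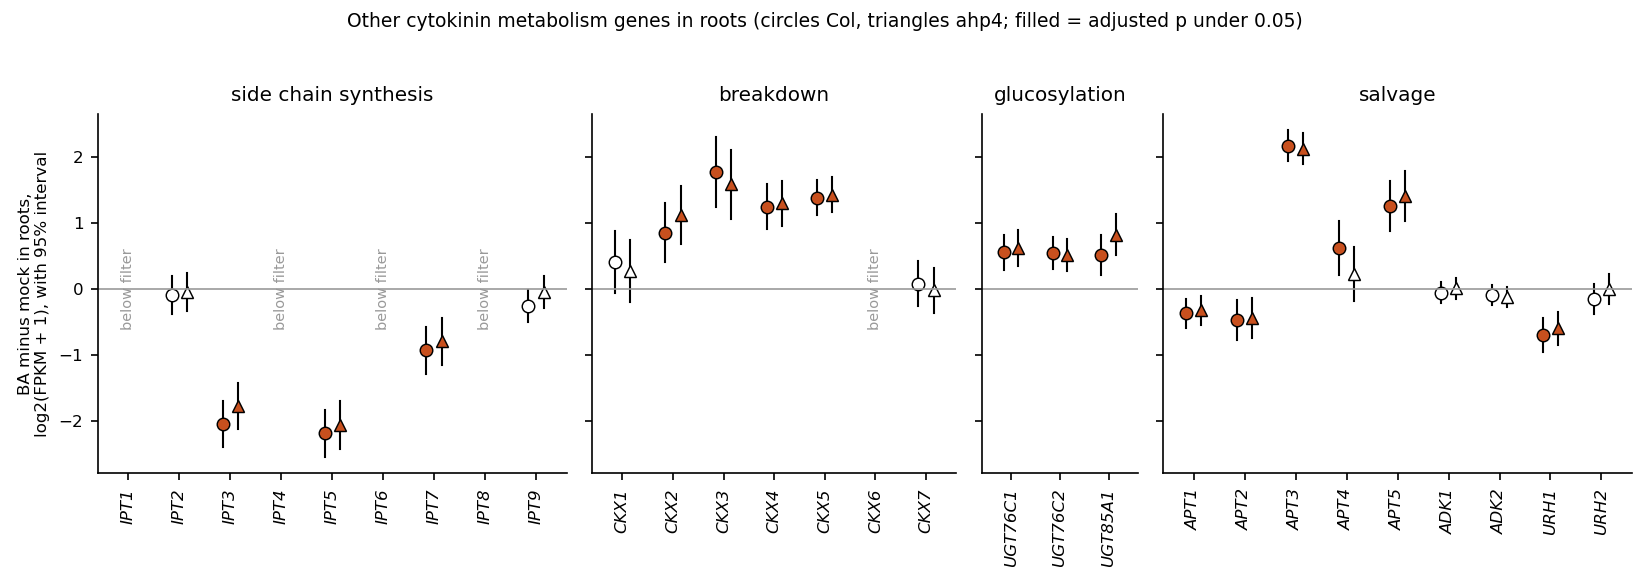
Change with BA in roots of the genes for side chain synthesis, breakdown, glucosylation and salvage, as BA minus mock on log2(FPKM + 1) with 95% intervals; circles are Col, triangles ahp4, filled symbols passed the adjusted threshold of 0.05. IPT3, IPT5 and IPT7 lie below 0, and CKX2 to CKX5, the 3 glucosyltransferase genes, APT3 and APT5 above it in both genotypes.

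The genes with the pattern most like CYP735A2 over the 30 libraries, out of 20818 genes, were YLS9 (Pearson r = 0.985 on log2(FPKM + 1)), UGT76D1 (r = 0.984) and PSK4 (r = 0.984). These values describe libraries that share 2 organs and 2 treatments. YLS9 had means of 7.18 FPKM in mock and 68.8 FPKM in BA Col roots, and 0 and 0.525 FPKM in Col shoots. For LOG7, the LOG gene with the widest range of group means, they were MEB2 (r = 0.992), HCHIB (r = 0.989) and LAC7 (r = 0.988), each with a higher mean in roots than in shoots. YLS9 is also the gene before LOG2 on the plus strand of chromosome 2. It ends 544 bases before LOG2 starts. Its log2 change with BA was 3.18 ± 0.23 in Col roots (adjusted p = 2.24e-07). EMB3114, which starts 238 bases after LOG2 ends, changed by 0.34 in Col roots (adjusted p = 0.0998) and by 0.49 in ahp4 roots (adjusted p = 0.0198). AT2G28310, the gene after LOG1 on the same strand, was called lower, by -0.50 in Col roots (adjusted p = 0.00248) and by -0.41 in ahp4 roots (adjusted p = 0.00866). SYD, the gene before LOG1, changed by 0.19 in Col (adjusted p = 0.539) and by 0.07 in ahp4 (adjusted p = 0.849). The neighbours of CYP735A2 on either side were not called, AT1G67105 at -0.04 in Col (adjusted p = 0.896) and -0.36 in ahp4 (adjusted p = 0.163), and AT1G67120 at -0.04 (adjusted p = 0.911) and -0.20 (adjusted p = 0.566). The neighbours of these 3 genes were taken by position after values were seen. YLS9, LOG2 and EMB3114 lie on the same strand, as do SYD, LOG1 and AT2G28310. A count by strand would not part reads that run from one of these into the next. The part of such reads was not tested.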

How the data were processed

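Gene levels were FPKM values that the authors deposited as 1 table for all 30 libraries. Per the submitters' processing notes the build is TAIR10. The aligner, the counter and whether strand was used were not given in the sources used here. In each library the FPKM values of a gene were whole multiples of 1 step, so reads were rebuilt for 26893 features (100% within 0.01 reads). The largest step that fits was taken. A feature above 0 in a single library is therefore whole by construction, and the share does not check its count. The scale between libraries was the median of ratios, not the read total, and shoot libraries had 1.40 times the reads per unit of scale of root libraries. The 10 genes, the gene lists and the tests were chosen with earlier results of these data known. No column of other samples was present (0).

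Genes with 1 FPKM or more in at least 3 libraries of a fit were tested on log2(FPKM + 1) with limma 3.58.1 in R 4.3.3, with a mean-variance trend, and p-values were adjusted by Benjamini-Hochberg over all genes tested at a threshold of 0.05. The 4 root groups shared 1 fit, the 4 shoot groups another, and comparisons between organs used all 8 groups, with root and shoot libraries taken as independent. Members below the filter were tested with two-sided exact permutation tests. Limits of 3 reads cover counting error alone. Named genes were the 10 members, up to 4 genes per metabolism list and BA contrast by smallest p, the 3 genes most correlated with CYP735A2 and with LOG7, and ABCG14, AHP4 and LOG9. Markers are named from the marker lists. The fifth and sixth salvage genes called in Col roots, and the neighbours of CYP735A2, LOG1 and LOG2 (by position), were added after values were seen. Marker lists were for green tissue, root, vascular tissue and shoot meristem. The alternatives were a pseudocount of 0.1, no filter, a filter on mean FPKM, quantile normalization, scaling by read totals, a replicate block, no variance trend, other sets of groups in a fit and each library left out. The voom test on rebuilt reads was added after seeing the data. The fit was tested on simulated data. Gene positions, coding sequences and the promoter windows came from RefSeq's TAIR10.1 and were matched by gene code. Tables and figures were made with python 3.11.15, numpy 2.4.6, pandas 2.3.3, scipy 1.17.1, matplotlib 3.10.9 and biopython 1.88.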

Additional observations from a re-analysis of the deposited data

Results flagged for a closer look

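In 60 sets of 4 libraries, 1 for each of the 10 genes in each group of 4, 6 held a library far from the other 3 by Dixon's test. Chance flags about 1 in 20 such groups. All 6 were in Col shoots and at low levels. CYP735A1 was at 0.0589 FPKM in mock replicate 4 and at 0.0574 FPKM in BA replicate 1, each a single read, with the other libraries of the group at 0. LOG2 was at 0.286 FPKM in mock replicate 4 and at 0.0697 FPKM in BA replicate 1, again with the others at 0. In these 4 sets 1 to 4 reads stood beside 3 libraries at 0, where any read is flagged by construction and the rate of 1 in 20 does not apply. LOG3 was at 0.568 FPKM in BA replicate 1, above the others, and LOG4 was at 0.132 FPKM in BA replicate 2, below the others.

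The BA change differed between roots and shoots by the limma interaction test for 4 genes in Col: CYP735A2 (1.64), LOG1 (-1.32), LOG2 (1.12) and LOG4 (-0.66), as root minus shoot on the log2 scale. In ahp4 it differed for 3: CYP735A2 (2.42), LOG1 (-1.34) and LOG2 (1.12). Not all of these calls held. LOG4 lost its call in Col under 18 of 25 alternatives. CYP735A2 lost its call in both genotypes, and LOG2 in ahp4, with a pseudocount of 0.1 and with voom. LOG1 lost its call in ahp4 without any 1 of 4 libraries.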

How the results depend on the processing

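Of 2209 values of the 10 genes under the alternatives, 2161 kept their direction and their side of the threshold, 34 lost a call, 14 gained one and 0 called values reversed, while 70 values that were never called changed sign. The count of called members in the organ by BA test went from 4 to 2 in Col and from 3 to 1 in ahp4, both with a pseudocount of 0.1 and with voom, which was chosen after seeing the data. The median correlation of deviations from group means was 0.0501 over 24 pairs of root libraries with the same replicate number, of which 10 were over 0.1, and -0.0244 over 72 pairs with different numbers, of which 12 were. In shoots it was 0.0333 (5 of 19 pairs) and -0.00895 (9 of 54). The main tests did not take the numbers as pairing. These correlations cannot decide whether they are, since paired libraries need not all exceed 0.1. Pairs of a root and a shoot library were not checked, so their independence in the organ tests is an assumption. With the replicate number as a block, 3 members were called with BA in roots of either genotype, 0 in shoots, and 3 rather than 4 in the organ by BA test of Col. Over all genes, ahp4 against Col in mock roots gave 17 calls, 10 with a pseudocount of 0.1 or no filter, 26 with quantile normalization, 9 without a variance trend or with only the groups compared, 7 with voom and 5 to 9 without each of 5 libraries (Col replicates 1 and 3, ahp4 replicates 2, 3 and 4). In BA roots it gave 5, and 2 with a pseudocount of 0.1, 1 with only the groups compared, and 3 with no filter, quantile normalization, the block, no trend, or without replicate 2 or 3 of either genotype. In mock shoots 1 call became 0 with a pseudocount of 0.1 and 2 with no filter, and in BA shoots 1 became 2 with no filter or no trend. The genotype by BA test in roots went from 0 to 1 with all 8 groups or without Col root BA replicate 1. BA in Col shoots gave 1487 calls, 2319 with all 8 groups, 989 with only the groups compared, and 977 or 811 without Col shoot mock replicate 1 or 3. In ahp4 shoots it gave 716, 1287 and 450 likewise, and 330, 367, 353 or 441 without ahp4 shoot mock replicate 2 or 3 or BA replicate 2 or 3. The organ by BA test fell from 2411 to 1562 in Col and from 1824 to 1022 in ahp4 with voom. The cause of these moves was not tested. Calls not in the report were gained by LOG5 between organs under quantile normalization (-0.60 in mock and -0.75 in BA-treated Col) and, with BA, without Col root BA replicate 2 (adjusted p = 0.0486) or Col shoot BA replicate 2 (0.0405) or 3 (0.0470), by LOG2 between organs of mock ahp4 with a pseudocount of 0.1 (1.51, adjusted p = 0.0248) and voom (2.46, adjusted p = 0.0361), and by LOG4 with BA in Col roots with all 8 groups (adjusted p = 0.0359). Low read numbers limit LOG2, LOG3, LOG4, LOG5 and LOG6, and both hydroxylase genes in shoots.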
